A study of Mus musculus with 12 samples.

Results

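The comparison described here set 3 libraries from ribose-treated mice against 3 libraries from vehicle-treated mice, which were 6 of the 12 RNA-seq libraries of the series. All came from C57BL/6J mice of 8 weeks. The source was sciatic dorsal root ganglion (DRG) neurons, from ganglia L4 to L6, collected 72 h after a spinal cord injury (SCI). The Ribose group received 10% ribose and the Vehicle group the vehicle alone, so the injury was shared by both groups. The labels leave out the route and schedule of ribose, the make-up of the vehicle, and whether the 3 libraries of a group came from separate animals. The p-values therefore measure the spread between these libraries, which may be partly technical. The values are FPKM, fragments of a transcript scaled by its length and by the depth of the library. Members were the 13804 of 21650 listed genes whose FPKM averaged 1 or more over the 6 libraries. Of these, 12584 were protein-coding and 1220 had another biotype. The protein-coding genes are described first, because values of pseudogenes can depend on where reads of near-identical genes were placed.

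Neurons of the dorsal root ganglia carry sensation from the body wall and limbs, with one axon branch in the peripheral nerve and another that enters the spinal cord. The peripheral branch regrows after injury, whereas the central branch in the cord regrows poorly. Ribose is a sugar that cells phosphorylate with ribokinase and can feed into the pentose phosphate pathway. The oxidative arm of that pathway makes NADPH for reduction and lipid synthesis. The non-oxidative arm, run by transketolase and transaldolase, exchanges ribose phosphate with intermediates of glycolysis. Ribose phosphate is also the sugar of nucleotides, which reach it through phosphoribosyl pyrophosphate.

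The spacing of low FPKM values gave relative depths of 1.01, 1.24 and 1.34 for Vehicle 1 to 3 and of 0.754, 0.905 and 0.877 for Ribose 1 to 3, so every Vehicle library was the deeper. Between 1247 and 2381 genes were listed at 0 in a Vehicle library, against 2482 to 3131 in a Ribose library. Absolute depth is unknown, since the files give no counts. All 15 pan-neuronal markers were measured, for example Uchl1, a neuronal ubiquitin hydrolase, at 1872 to 2087 FPKM and Rbfox3, the NeuN antigen, at 96.8 to 120 FPKM. The satellite glia marker Apoe stood at 115 to 948 FPKM, so the libraries also held RNA of glia. In bulk RNA, fewer cells of a type and less RNA per cell cannot be told apart.

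No protein-coding gene passed the test between the groups. With limma on log2(FPKM + 1) and Benjamini-Hochberg adjustment over all 13804 genes, 1 gene was higher in Ribose (0.00724%) and 0 were lower. The gene called is a processed pseudogene, Gm15387, described below. The count of 0 protein-coding genes compares with 268 higher (2.13%) and 235 lower (1.87%) at an unadjusted limma p under 0.05, together 4% of 12584 genes. The protein-coding gene nearest to the threshold was Gm14288 (limma adjusted p = 0.0967), which has a provisional name and falls outside the rule for named genes. It stood at 11.7, 4.86 and 7.49 FPKM in Vehicle 1 to 3 and was listed at 0 in all 3 Ribose libraries.

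Most protein-coding genes differed little between the groups. The difference (Ribose minus Vehicle in mean log2(FPKM + 1)) was under 0.5 in size for 11610 genes, 92.3% of those tested, and its median was -0.03. The median standard error of a difference was 0.21, and it was 0.31 for genes under 5 FPKM and 0.13 for genes of at least 50 FPKM. Differences of at least 1 were found in 100 genes in the higher direction (0.795%) and 44 in the lower (0.35%).

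All 3 Ribose libraries lay above all 3 Vehicle libraries for 474 protein-coding genes (3.77%) and below them for 689 (5.48%). An exact permutation test over 3 against 3 libraries cannot give a p under 0.1, so such a separation has no significance of its own. The balance of the directions also moved with the scaling. Over all biotypes, 591 genes were separated and higher (4.28%) and 738 separated and lower (5.35%), so 44.5% of the separated genes were higher as deposited. The share was 59.2% once each library was scaled to an equal total without the 7SL RNA genes Rn7s1 and Rn7s2 and the mitochondrially encoded genes.

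The direction of the differences varied with level and with transcript length. Among the 1308 protein-coding genes with a mean of 1 to 2 FPKM, the median difference was 0.08 and 41% of genes were lower in Ribose. Among the 1748 genes over 50 FPKM, the median was -0.06 and 73.7% were lower. Ordered by exon length and cut into 4 equal bins, the shortest protein-coding genes (median 2021 bases) had a median difference of -0.07 and the longest (median 9497 bases) one of 0.00. The leading genes below share this: the 15 higher ones had a median exon length of 5242 bases and the 15 lower ones of 2688 bases, against 4607 over all protein-coding genes. The part of depth and length in the differences was not tested.

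**Figure D1:**
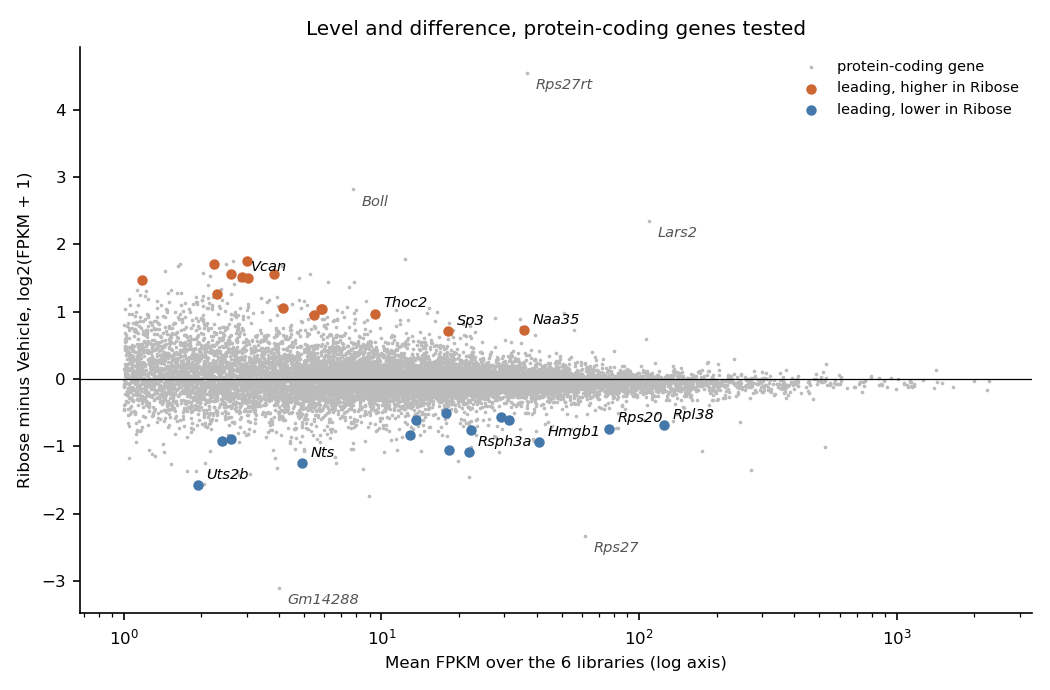
Mean FPKM over the 6 libraries (log axis) against Ribose minus Vehicle in log2(FPKM + 1) for the 12584 protein-coding genes tested. Orange and blue points are the 15 leading genes in each direction, and grey names are genes with extreme values outside that rule. The cloud narrows and sits slightly below 0 at high level, where the median over 50 FPKM is -0.06.

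Of the 12584 protein-coding genes tested, 207 named ones were separated and at least 0.5 higher in Ribose. Fewer met the same rule in the lower direction. Separation alone, over all protein-coding genes, leaned the other way, with 474 higher and 689 lower. Of the 207 genes, the 15 with the smallest p led with Vcan. Vcan encodes versican, a large chondroitin sulfate proteoglycan of the extracellular matrix (GRCm38, chr13:89655312-89742509). It stood at 0.924, 1.11 and 1.01 FPKM in the Vehicle libraries and at 5.05, 4.88 and 4.37 FPKM in the Ribose libraries. The group means were 1.02 ± 0.0938 and 4.77 ± 0.356 FPKM (SD, n = 3 each), 4.69-fold apart. Neither group's spread came near the gap, which a choice by separation and smallest p favours. The log2 difference was 1.51 with a standard error of 0.21, and the limma adjusted p over all genes was 0.324.

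Thoc2 and Sp3 had the next smallest p. Thoc2, a subunit of the THO complex in mRNA export, stood at 5.79, 5.40 and 6.92 FPKM in Vehicle and at 10.9, 14.8 and 12.8 FPKM in Ribose, a 2.13-fold ratio of means (limma adjusted p = 0.604). Sp3, a zinc finger transcription factor, stood at 12.9, 14.7 and 13.0 FPKM in Vehicle and at 21.8, 21.8 and 24.9 FPKM in Ribose. Naa35, a subunit of an N-terminal acetyltransferase and the most abundant of the 15, had means of 26.8 ± 3.48 FPKM in Vehicle and 44.8 ± 4.74 FPKM in Ribose (SD, n = 3). These 3 genes were all above 5 FPKM in every library. Their groups were apart by more than the range within either, which the same choice favours. Sinhcaf, of the SIN3 histone deacetylase complex, had means of 3.37 and 7.57 FPKM, Ints13, an Integrator subunit, of 3.45 and 8.36 FPKM, and Mybl1, a transcription factor of the Myb family, of 2.36 and 5.95 FPKM.

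The other higher genes were low in level. The homeobox gene Hoxd10 stood at 3.12, 4.04 and 3.13 FPKM in Vehicle and at 7.74, 6.43 and 10.6 FPKM in Ribose. Centrosome genes were among them, with Vehicle and Ribose means of 1.45 and 6.23 FPKM for Cep112 and of 0.917 and 3.70 FPKM for Rttn. Sfrp2, a secreted Wnt-binding protein, stood at 0.546, 0.660 and 0.188 FPKM in Vehicle and at 4.53, 2.00 and 5.49 FPKM in Ribose. Shisa9, an auxiliary protein of AMPA receptors, had means of 0.864 and 4.37 FPKM, Spin2c, of the spindlin family, of 1.14 and 4.95 FPKM, and Krtap1-4, a keratin-associated protein, of 0.895 and 5.10 FPKM. Itln1, a lectin, was listed at 0 in Vehicle 2 and 3, at 0.454 FPKM in Vehicle 1 and at 1.36 to 2.64 FPKM in Ribose. The limma adjusted p of the 15 ran from 0.324 to 0.766.

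In the opposite direction, under the same rule, Hmgb1, a chromatin protein that also acts as an alarm signal when released from cells, had the smallest p of the 15 genes (GRCm38, chr5:149046702-149184489). It stood at 50.9, 56.1 and 54.7 FPKM in Vehicle and at 25.1, 33.1 and 25.4 FPKM in Ribose (limma adjusted p = 0.396). The ribosomal protein genes Rpl38 and Rps20 were also among the 15, with means of 155 ± 14.4 and 95.8 ± 5.36 FPKM for Rpl38 and of 95.6 ± 9.10 and 57.8 ± 13.8 FPKM for Rps20 (SD, n = 3). All 3 have a near-identical copy elsewhere in the genome whose value was higher in Ribose, as set out below, so their own difference cannot be told apart from where their reads were placed.

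Rsph3a, a radial spoke gene of cilia, stood at 29.4, 30.3 and 30.1 FPKM in Vehicle and at 10.5, 15.4 and 15.3 FPKM in Ribose (limma adjusted p = 0.433). Its relative Rsph3b, 58.5% of whose 31-base words also occur in Rsph3a, had means of 17.0 and 15.9 FPKM, so Rsph3b did not carry the opposite difference. Rps27l, a relative of the ribosomal protein gene Rps27, stood at 22.1, 20.5 and 32.4 FPKM in Vehicle and at 12.7, 12.7 and 8.84 FPKM in Ribose.

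The lower set held 2 peptide genes. Nts, which encodes the neuropeptide neurotensin, stood at 8.07, 4.47 and 9.70 FPKM in Vehicle and at 2.29, 1.86 and 3.13 FPKM in Ribose. Its log2 difference was -1.26 with a standard error of 0.30 (limma adjusted p = 0.766). Uts2b, of the urotensin family, stood at 2.60, 5.00 and 2.55 FPKM in Vehicle and at 0.352 and 1.13 FPKM in Ribose 1 and 2, and was listed at 0 in Ribose 3.

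Several of the remaining lower genes had narrow groups. Dhrs7, a short-chain dehydrogenase, stood at 20.1 to 21.7 FPKM in Vehicle and 14.0 to 15.5 FPKM in Ribose, and the methyltransferase-like gene Mettl26 at 16.2 to 17.1 and 9.48 to 12.0 FPKM. Cyb5d1, a heme-binding domain gene, had means of 38.0 and 24.5 FPKM, and Trappc13, of a vesicle-tethering complex, of 34.9 and 23.2 FPKM. Gab1, an adaptor of growth factor receptors, had means of 16.8 and 9.09 FPKM. Lsm7, of an RNA-binding ring in splicing and mRNA decay, had means of 28.4 and 16.2 FPKM. Mettl25 and the zinc finger gene Zfp94 were under 5 FPKM in every library, with Vehicle means of 3.45 and 3.70 FPKM and Ribose means of 1.35 and 1.53 FPKM.

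**Figure D2:**
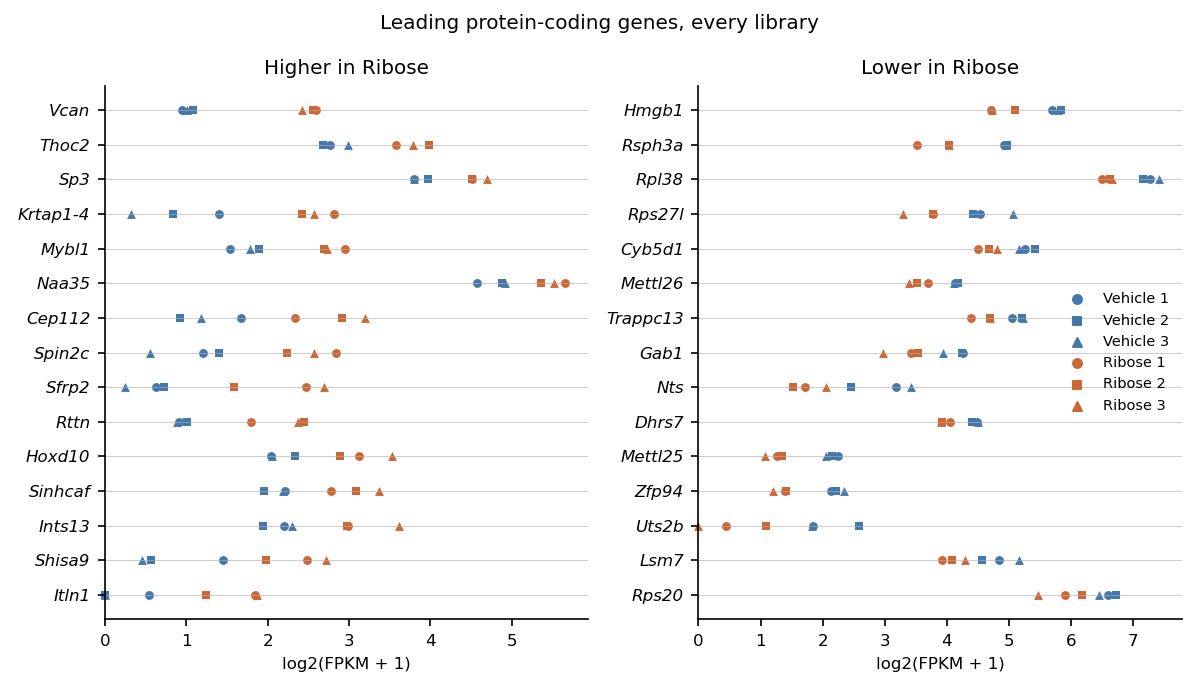
log2(FPKM + 1) in each of the 6 libraries for the 15 leading protein-coding genes higher in Ribose (left) and the 15 lower (right), with blue for Vehicle, orange for Ribose and a marker shape for each replicate number. The colours do not overlap in any row, which the rule required. The 3 Vehicle values of Rsph3a nearly coincide, as do those of Vcan.

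A few genes outside the rule had larger differences that came from 1 or 2 libraries, and they were picked out after their values were seen. Lars2, the mitochondrial leucyl-tRNA synthetase, stood at 18.2, 34.5 and 10.8 FPKM in Vehicle and at 488, 73.8 and 28.4 FPKM in Ribose, so Ribose 1 set most of its difference. Boll, a germ cell RNA-binding protein, was at 9.47 and 37.0 FPKM in Ribose 1 and 2 and listed at 0 in Ribose 3. Their groups overlapped.

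Near-identical copies carried the only significant difference of the table. Gm15387 is a processed pseudogene, an intronless copy of an mRNA, whose sequence matches 647 of the 648 coding bases of Hmgb1. It was listed at 0 in all 3 Vehicle libraries and at 24.2, 20.2 and 30.7 FPKM in the 3 Ribose libraries (limma adjusted p = 0.000851). No fold is given against a group listed at 0. The means of Hmgb1 were 53.9 ± 2.72 and 27.9 ± 4.55 FPKM (SD, n = 3 each). FPKM is scaled by length, and the lengths used for these values are not known. Reads placed on a shorter copy in place of the parent need not add the same FPKM that the parent lost. The values of a pair are therefore given side by side, not summed. The files give no alignments, and the labels do not say how reads that match both were placed.

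The first 120 coding bases of Hmgb1 and the matching stretch of Gm15387 (GRCm38, chr15:74094214-74094333, minus strand) are shown because reads from this stretch carry at most 1 base that tells the genes apart. The single differing base is in capitals. The exons of Hmgb1 span 5023 bases and those of Gm15387 only 648, so the likeness concerns the coding part and the rest of the Hmgb1 transcript is not in the copy.
Hmgb1: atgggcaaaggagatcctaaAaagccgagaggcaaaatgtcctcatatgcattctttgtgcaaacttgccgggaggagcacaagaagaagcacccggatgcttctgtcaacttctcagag
Gm15387: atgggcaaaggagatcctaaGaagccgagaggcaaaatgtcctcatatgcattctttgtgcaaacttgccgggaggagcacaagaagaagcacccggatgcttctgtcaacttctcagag
A second pair is Rps20 and the processed pseudogene Gm4332, shown over coding bases 205 to 324 of Rps20 (Gm4332 at chr3:119709709-119709828, plus strand), again with 1 difference in capitals.
Rps20: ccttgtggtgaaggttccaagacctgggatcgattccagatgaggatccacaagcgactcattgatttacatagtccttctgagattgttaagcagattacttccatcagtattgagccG
Gm4332: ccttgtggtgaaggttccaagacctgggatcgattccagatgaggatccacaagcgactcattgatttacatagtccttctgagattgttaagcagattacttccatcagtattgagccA

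In the other pairs the parent was again lower and the copy higher in Ribose, which is what they were chosen for. Gm4332 stood at 29.6, 45.6 and 42.9 FPKM in Vehicle and at 91.4, 71.3 and 82.3 FPKM in Ribose, opposite to Rps20, whose values are above, and its exon is 346 bases long against 4080 for Rps20. Rpl38 and Rpl38-ps2 are identical over all 213 coding bases, in exons of 542 and 213 bases. Rpl38-ps2 was at 5.29 and 1.14 FPKM in Vehicle 1 and 2, listed at 0 in Vehicle 3, and at 17.0, 40.7 and 44.9 FPKM in Ribose. Rps27 and Rps27rt, a protein-coding retrotransposed copy, are identical over 255 coding bases, in exons of 1043 and 374 bases. Rps27 stood at 106, 90.4 and 70.9 FPKM in Vehicle and at 62.1, 1.14 and 40.1 FPKM in Ribose. Rps27rt was listed at 0 in Vehicle 1 and 2, at 14.4 FPKM in Vehicle 3, and at 22.4, 104.4 and 79.9 FPKM in Ribose. The 4 pairs were chosen after their values were seen, for their opposite differences, so those are a description.

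**Figure D3:**
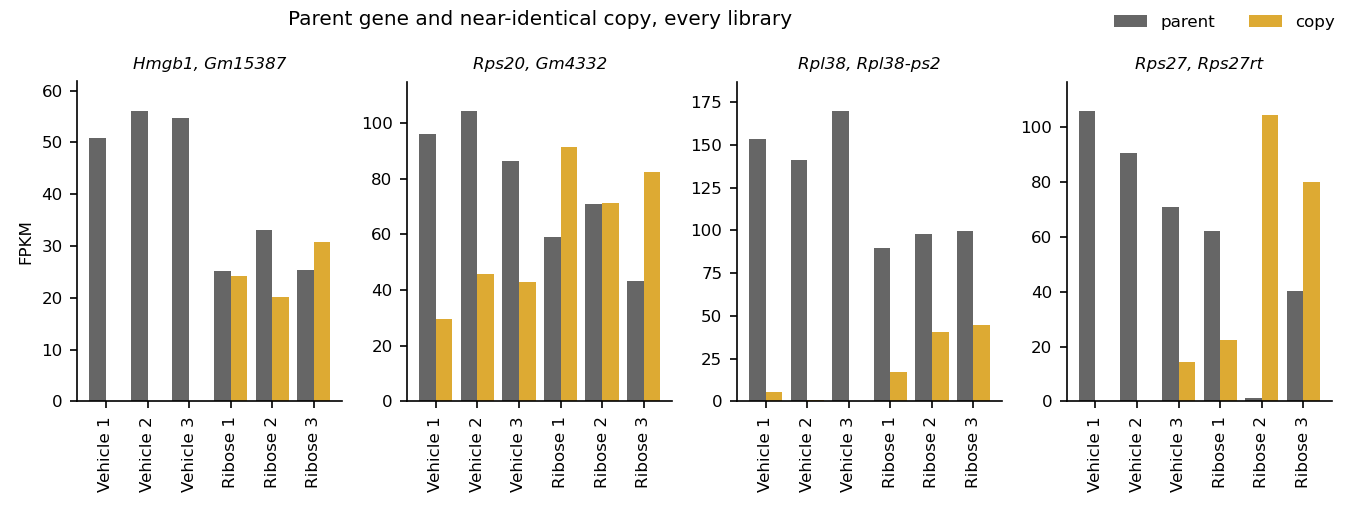
FPKM of 4 parent genes (grey bars) and of their near-identical copies (yellow bars), side by side, in each of the 6 libraries. The grey bars are lower and the yellow bars higher in the 3 Ribose libraries of every pair, with Hmgb1 at 50.9 to 56.1 FPKM in Vehicle and 25.1 to 33.1 FPKM in Ribose.

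Matched copies were then counted over the whole table. Of the 386 processed pseudogenes tested, 286 shared at least 20% of their 31-base words with a protein-coding gene. Those 286 had a median difference of 0.49, and 198 were higher in Ribose. Their 202 parent genes had a median of -0.09, and 142 were lower. Of all protein-coding genes 56.4% were lower, and of those over 50 FPKM 73.7%, with a median of -0.06. The pseudogenes under 5 FPKM had a median of 0.50 and the 110 of at least 5 FPKM a median of 0.05, while protein-coding genes under 5 FPKM had a median of 0.04. Processed pseudogenes took 0.986% to 1.07% of the summed FPKM in Vehicle and 1.08% to 1.33% in Ribose, and the Ribose libraries were the shallower, as given above. A mean of 1 FPKM over the 6 libraries can also be reached through 1 group alone. Gm8942 passed with means of 0 in Vehicle and 3.00 FPKM in Ribose, and Gm5417 with 7.64 and 0 FPKM. The parts of depth and of this filter in the medians and counts were not tested.

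The genes of the pentose phosphate pathway and of ribose use had small differences. Of 15 listed enzymes 14 were measured, and 0 of 14 passed the limma test, also at an unadjusted p under 0.05. Their median difference was -0.08, against -0.02 over all genes. In the oxidative arm, G6pdx, the entry enzyme, stood at 21.4, 27.5 and 29.2 FPKM in Vehicle and at 24.7, 27.7 and 28.2 FPKM in Ribose. Pgd, the second dehydrogenase, had means of 31.1 ± 2.80 and 31.5 ± 2.80 FPKM (SD, n = 3), and the lactonase Pgls of 25.9 and 23.4 FPKM. In both dehydrogenases the groups overlapped.

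In the non-oxidative arm, transketolase (Tkt) was the most abundant enzyme of the pathway. It stood at 112.5, 126 and 116 FPKM in Vehicle and at 106, 112.0 and 105.02 FPKM in Ribose, with a log2 difference of -0.13 and a standard error of 0.09. Transaldolase (Taldo1) stood at 77.1, 90.1 and 81.0 FPKM in Vehicle and at 70.4, 79.4 and 67.8 FPKM in Ribose. The Tkt groups did not overlap, though Vehicle 1 and Ribose 2 were less than 1 FPKM apart, and those of Taldo1 overlapped. The epimerase Rpe had means of 16.8 and 20.4 FPKM and the isomerase Rpia of 3.54 and 2.77 FPKM. Ribokinase (Rbks), which phosphorylates ribose, stood at 2.87, 2.58 and 1.70 FPKM in Vehicle and at 1.97, 4.44 and 1.75 FPKM in Ribose. The phosphoribosyl pyrophosphate synthetases Prps1 and Prps2 had Vehicle means of 23.2 and 9.19 FPKM and Ribose means of 21.3 and 8.87 FPKM. All 14 limma adjusted p-values rounded to 1.

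Pathways next to it gave similarly small differences. Of 24 genes of nucleotide synthesis, 11 were higher and 13 lower, with a median of -0.01. Mthfd1, of folate metabolism, had separated groups at 7.79 to 9.48 FPKM in Vehicle and 10.4 to 14.7 FPKM in Ribose (limma adjusted p = 1). Of 21 NADPH, glutathione and antioxidant genes, 17 were lower, with a median of -0.08. Among them Nqo1, a quinone reductase, stood at 5.40, 6.26 and 6.71 FPKM in Vehicle and at 3.39, 5.37 and 2.39 FPKM in Ribose. Of 24 genes of glycolysis and lactate handling, 18 were lower, with a median of -0.05 and 0 separated, and the glucose transporter Slc2a1 had means of 16.3 and 13.4 FPKM. Of all protein-coding genes 56.4% were lower, and of those over 50 FPKM 73.7%, which also bears on the antioxidant count. The citrate cycle genes had a median of -0.05 over 20 genes. The sugar and osmotic response list held the taurine transporter Slc6a6, with separated groups at 2.35 to 3.68 FPKM in Vehicle and 3.90 to 7.16 FPKM in Ribose.

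Respiratory chain genes of the nucleus shared a direction, each by a small amount. Of 45 subunits, 44 were lower in Ribose, against 73.7% of all protein-coding genes over 50 FPKM, and the median difference was -0.16. None passed the limma test (lowest limma adjusted p = 0.957), and 10 had separated groups, all lower, against 5.48% of protein-coding genes and 8.47% of those over 50 FPKM. The median was -0.14 for 20 subunits of complex I, -0.12 for 6 of complex III, -0.26 for 8 of complex IV and -0.16 for 11 of ATP synthase. Ndufs4, a complex I subunit, stood at 31.1, 44.1 and 40.4 FPKM in Vehicle and at 25.1, 29.5 and 25.5 FPKM in Ribose. Cox6c and Cox5b, of cytochrome c oxidase, had means of 58.2 and 42.3 FPKM and of 161 and 130 FPKM. The 3 genes had separated groups, and the median of the list ran from -0.24 to -0.07 over the alternatives, the smallest of them without Vehicle 3.

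The mitochondrially encoded subunits varied by library. Their median difference was -0.25 over 13 genes, but it was 0.22 without Ribose 2. In that library the list deviated from its 6-library mean by -1.21 on average, and by -0.28 to 0.61 in the other 5. mt-Atp6 alone had separated groups, at 371, 339 and 429 FPKM in Vehicle and at 106, 113 and 271 FPKM in Ribose (limma adjusted p = 0.789, and 0.0422 without Ribose 3). The nuclear pseudogene Gm10925, of 678 bases, shares 100% of its 31-base words with mt-Atp6, of 681 bases. Gm10925 stood at 218, 23.2 and 240 FPKM in Vehicle and at 708, 134 and 238 FPKM in Ribose, the opposite direction in the means with overlapping groups, so the difference of mt-Atp6 cannot be told apart from where its reads were placed. mt-Co1 stood at 495 to 956 FPKM in Vehicle and 349 to 1249 FPKM in Ribose. mt-Nd3, a complex I subunit that all cells with mitochondria use, was listed at 0 in 5 of the 6 libraries while its near-identical pseudogene Gm28438 had means of 12.6 and 9.99 FPKM, so a 0 in the table need not mean that a gene was off.

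Ribosomal protein and proteasome genes were also mostly lower by small amounts. Of 51 cytoplasmic ribosomal protein genes, 45 were lower, with a median of -0.15 and 8 separated, all lower. Of protein-coding genes over 50 FPKM, 73.7% were lower and 8.47% separated and lower, which also bears on the proteasome counts below. The 27 without a matched processed pseudogene among the genes tested had a median of -0.16 and the 24 with one of -0.12. Rps27 is among the 27, because its copy Rps27rt is protein-coding. The split therefore does not part genes that have copies from genes that have none. Rpl11 stood at 146, 155 and 136 FPKM in Vehicle and at 112, 122 and 116 FPKM in Ribose, and Rps28 had means of 72.5 and 54.9 FPKM (limma adjusted p = 0.913 and 0.899). Of 31 proteasome subunits, 26 were lower, with a median of -0.10 and 9 separated, all lower, and Psmb2 had means of 72.0 ± 4.72 and 59.4 ± 4.56 FPKM (SD, n = 3). No member of either list passed the test. Both medians stayed below 0 in every alternative, from -0.18 to -0.07 for ribosomal proteins and from -0.15 to -0.04 for the proteasome.

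The ribosome biogenesis list went both ways, with 10 higher and 13 lower. Dkc1, the pseudouridine synthase of small nucleolar RNAs, stood at 6.05, 7.51 and 10.1 FPKM in Vehicle and at 10.6, 13.7 and 22.8 FPKM in Ribose. Its partner Nhp2 stood at 17.6 FPKM or more in Vehicle and at 14.8 FPKM or less in Ribose. Both had separated groups in opposite directions (limma adjusted p = 0.97 and 0.913).

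Among stress genes, 19 of 23 of the unfolded protein and integrated stress lists were lower, with a median of -0.07. The share was 56.4% of all protein-coding genes and 73.7% of those over 50 FPKM. Ddit3, the transcription factor CHOP, had means of 12.5 and 9.71 FPKM and the glutathione-degrading Chac1, usually placed downstream of it, of 4.15 and 6.24 FPKM, and the groups of both were separated. Heat shock chaperones had a median of -0.04, with the cochaperone Dnaja1 at means of 90.4 and 73.6 FPKM. In cholesterol synthesis, Cyp51, the lanosterol demethylase, stood at 41.6, 40.0 and 46.2 FPKM in Vehicle and at 33.3, 25.8 and 30.3 FPKM in Ribose (limma adjusted p = 0.874), while Lss, the enzyme before it, had means of 10.2 and 13.3 FPKM. The median over 26 lipid synthesis genes was -0.04.

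**Figure D4:**
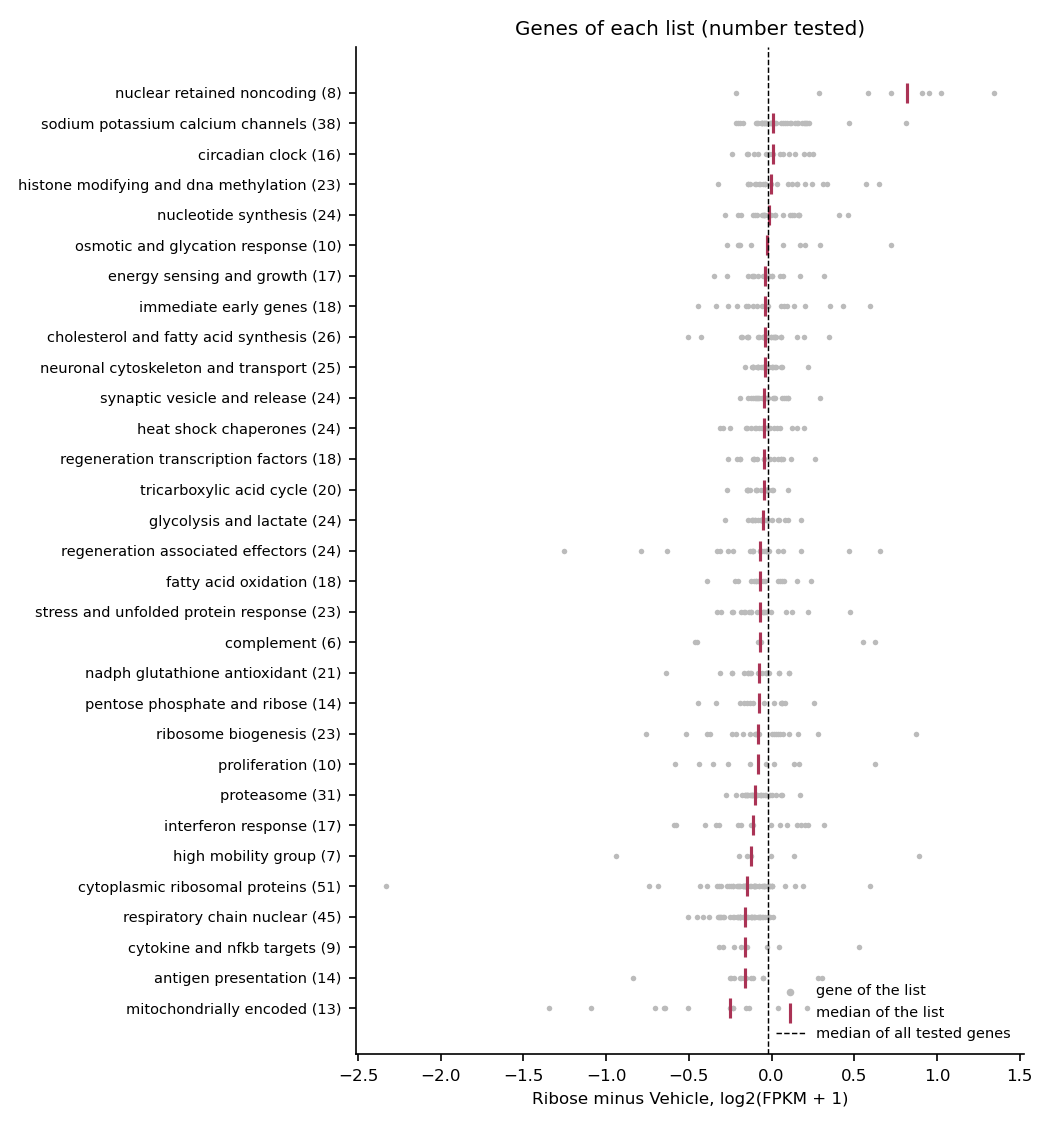
Ribose minus Vehicle in log2(FPKM + 1) for each gene of the pathway, complex and RNA class lists, with a red bar at the median of a list and a dashed line at the median of all tested genes (-0.02). Most medians lie within 0.1 of the dashed line, the mitochondrially encoded (-0.25), antigen presentation, NF-kB target and respiratory chain lists (-0.16 each) and ribosomal proteins (-0.15) lie furthest below it, and nuclear-retained RNAs at 0.82 lie far above.

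Genes of injury and regeneration lay on both sides of 0. Of 18 transcription factors tied to axon regeneration, 7 were higher and 11 lower, with 0 separated and a median of -0.04. Jun, the best known of them, stood at 80.2, 49.8 and 98.2 FPKM in Vehicle and at 68.0, 48.2 and 68.9 FPKM in Ribose. Of 24 effector genes, 19 were lower, with a median of -0.07, against 56.4% of all protein-coding genes and 73.7% of those over 50 FPKM. Sprr1a, a protein induced in injured neurons, stood at 11.2, 1.803 and 12.5 FPKM in Vehicle and at 8.53, 1.68 and 2.52 FPKM in Ribose, and the neuropeptide galanin (Gal) had means of 16.9 ± 9.11 and 25.1 ± 0.579 FPKM (SD, n = 3). In Sprr1a and Gal the SD within Vehicle was larger than the difference of the means. The 18 immediate early genes had a median of -0.04 and the 16 clock genes of 0.01.

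Markers of neuronal identity had small differences. The 15 pan-neuronal markers had a median of -0.03, and the growth-associated Stmn2 stood at 929, 929 and 994 FPKM in Vehicle and at 875, 914 and 850 FPKM in Ribose. Of 12 markers of peptidergic nociceptors, 9 were higher, with a median of 0.17. Their mean deviation from the 6-library mean was -0.18, 0.21 and -0.31 in Vehicle and 0.05, 0.23 and 0.01 in Ribose, with overlapping groups. Of all protein-coding genes, 56.4% were lower. Of 20 markers of non-peptidergic nociceptors, 14 were lower, with a median of -0.13. Lypd1 stood at 7.59, 10.8 and 7.44 FPKM in Vehicle and at 3.34, 4.76 and 5.83 FPKM in Ribose (limma adjusted p = 0.957).

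Markers of neuron types also varied between libraries of 1 group. The mean deviation of the non-peptidergic markers from their 6-library mean was 0.81 in Vehicle 2 and at most 0.26 in any other library. For large-diameter neurons it was -0.71 in Vehicle 2, against 0.24 and 0.41 in the other 2 Vehicle libraries, with Ntrk2 at 48.0, 21.3 and 59.5 FPKM in Vehicle 1 to 3. The medians of these 2 lists ran from -0.37 to 0.33 and from -0.30 to 0.30 over the alternatives.

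Excitability and release genes centred near 0. Of 38 sodium, potassium and calcium channel genes, 19 were higher and 19 lower, with a median of 0.01. The embryonic sodium channel Scn3a had the smallest p, at 2.68, 1.74 and 0.971 FPKM in Vehicle and 3.48, 4.14 and 3.71 FPKM in Ribose (limma adjusted p = 0.976). The 24 synaptic vesicle genes had a median of -0.04 with 0 separated, and the 25 cytoskeleton and transport genes of -0.04, with the kinesin Kif3a at means of 49.3 ± 1.23 and 57.7 ± 2.74 FPKM (SD, n = 3).

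Glial RNA was lower in Ribose on average, mostly through 1 library. Of 14 satellite glia markers, 12 were lower, with a median of -0.35, and 0 were separated. Apoe stood at 694, 371 and 948 FPKM in Vehicle and at 549, 115 and 471 FPKM in Ribose, and the fatty acid binding protein Fabp7 at 245, 112 and 322 FPKM and at 185, 33.4 and 151 FPKM. The mean deviation of the list was -0.38 in Vehicle 2 and -1.06 in Ribose 2, and it was above 0 in the other 4 libraries. Without Ribose 2 the median was -0.01. Of 14 Schwann cell markers, 11 were lower, with a median of -0.29. The myelin proteolipid Mal stood at 13.4, 11.0 and 12.2 FPKM in Vehicle and at 9.87, 4.95 and 6.35 FPKM in Ribose (limma adjusted p = 0.957), and it and Cnp, a myelin enzyme, were the 2 with separated groups. Of all protein-coding genes 56.4% were lower and 5.48% separated and lower, which bears on both glial lists.

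Stroma, blood and immune genes varied in the same libraries. The globin gene Hbb-bs stood at 24.1, 55.7 and 20.02 FPKM in Vehicle and at 81.4, 5.31 and 83.7 FPKM in Ribose. With both replicate 2 libraries left out, its log2 difference was 1.86 (limma adjusted p = 0.0415), against 0.19 over all 6 libraries. The neutrophil marker Lcn2 stood at 3.00, 14.0 and 4.86 FPKM in Vehicle and at 8.50, 0.712 and 7.596 FPKM in Ribose. For 11 fibroblast and matrix markers the median was 0.22, and 0.76 without Ribose 2, with the matrix protein Mgp at 23.8, 2.60 and 23.5 FPKM in Ribose. Ribose 2 had the lowest mean deviation of all 6 libraries for fibroblast, endothelial, macrophage, neutrophil and erythroid markers. Vcan, the leading higher gene and itself a matrix gene, was at 4.88 FPKM in that library, between the other 2 Ribose values. Most of the 15 higher genes also had their lowest Ribose value in that library. Unlike the marker lists, they stayed above every Vehicle value there, which the rule required. The genes with their lowest Ribose value there were Sp3, Krtap1-4, Mybl1, Naa35, Spin2c, Sfrp2, Hoxd10, Ints13, Shisa9 and Itln1. Of them, Sp3 and Ints13 were nearly as low in Ribose 1. Thoc2, Cep112, Rttn and Sinhcaf had their lowest Ribose value in Ribose 1. The part of these cell types in the leading genes was not tested.

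Only 5 of 16 macrophage markers and 1 of 14 lymphocyte markers reached a mean of 1 FPKM, and 10 of the macrophage markers, Cd68 and Aif1 among them, were listed at 0 in at least 1 library. Antigen presentation genes had a median of -0.16 over 14 genes and interferon response genes of -0.11 over 17. Nfkbia, the inhibitor of NF-kB and one of its targets, stood at 8.00, 8.76 and 8.74 FPKM in Vehicle and at 12.4, 12.3 and 13.4 FPKM in Ribose, with tight and separated groups (limma adjusted p = 0.838). The other 8 measured genes of that list included 1 more with separated groups, Tnfaip3, at 1.12 to 1.93 FPKM in Vehicle and 0.803 to 1.08 FPKM in Ribose.

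Of 11 skeletal muscle genes, 9 were listed, and 4 of these fell under the mean of 1 FPKM. The 5 measured were low in level and all higher in Ribose, with a median of 0.89 that ran from 0.50 to 1.74 over the alternatives. Of all protein-coding genes 56.4% were lower, and of those of 1 to 2 FPKM 41%. Acta1, skeletal actin, stood at 7.58, 2.83 and 1.34 FPKM in Vehicle and at 8.54, 6.93 and 19.6 FPKM in Ribose, so its groups overlapped. Tnni2, a fast troponin, was listed at 0 in Vehicle 1, at 0.131 and 0.852 FPKM in Vehicle 2 and 3 and at 1.39 to 2.36 FPKM in Ribose. It therefore passed the filter only through its Ribose values. Of the list, Pvalb is also a marker of proprioceptive neurons. No muscle gene passed the test (lowest limma adjusted p = 0.957).

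**Figure D5:**
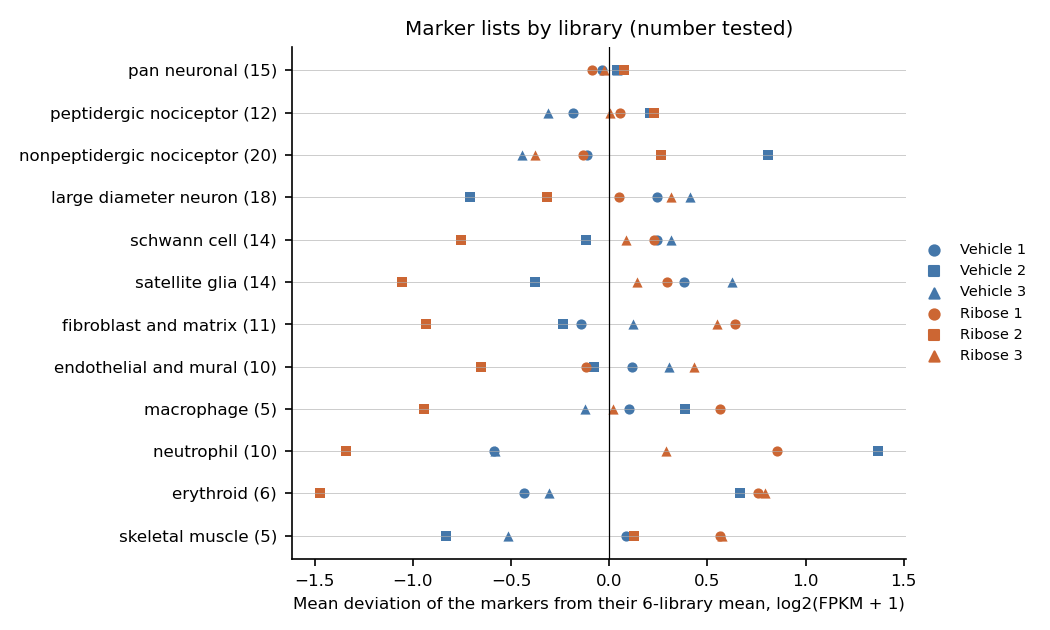
Mean deviation of each marker list from its 6-library mean, in log2(FPKM + 1), for each library, with blue for Vehicle, orange for Ribose and a marker shape for each replicate number. Ribose 2 (orange square) is the lowest in the 7 lists from Schwann cell to erythroid, at -1.48 for erythroid, while pan-neuronal markers lie within 0.1 of 0 in all 6 libraries.

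Chromatin and RNA genes closed the comparison. Of 23 histone-modifying and DNA methylation genes, 11 were higher and 12 lower, with the demethylase Kdm6a at 7.78 to 9.85 FPKM in Vehicle and 10.5 to 19.2 FPKM in Ribose. The high mobility group gene Hmgn2, a nucleosome-binding protein, stood at 30.7, 21.2 and 19.3 FPKM in Vehicle and at 53.4, 30.0 and 53.3 FPKM in Ribose, with overlapping groups. Of 8 RNAs that are mostly retained in the nucleus, 7 were higher, with a median of 0.82, which was 0.36 without Vehicle 2 and 0.10 without both replicate 2 libraries. Malat1 stood at 373, 114 and 224 FPKM in Vehicle and at 322, 934 and 524 FPKM in Ribose, and Miat at 17.4, 5.29 and 8.94 FPKM and at 12.8, 33.1 and 19.5 FPKM. Both were lowest in Vehicle 2 and highest in Ribose 2, the groups overlapped, and with those 2 libraries left out the median of the list was 0.10.

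Among 1220 genes of other biotypes, 117 were separated and higher in Ribose and 49 separated and lower, against 4.28% and 5.35% of all tested genes. Gas5, a growth arrest RNA that hosts small nucleolar RNAs, stood at 15.3, 15.3 and 15.1 FPKM in Vehicle and at 7.80, 2.33 and 3.42 FPKM in Ribose, so the Vehicle values were nearly equal and all Ribose values lower (limma adjusted p = 0.717). The processed pseudogene Gm5417 stood at 10.2, 7.45 and 5.29 FPKM in Vehicle and was listed at 0 in all 3 Ribose libraries (limma adjusted p = 0.0599), while its parent Vkorc1l1 had means of 32.0 and 30.9 FPKM. The unprocessed pseudogene Gm11618 was listed at 0 in all 3 Vehicle libraries and at 4.29, 2.72 and 3.94 FPKM in Ribose. H3f3a-ps2, a histone pseudogene, stood at 0.241 to 0.474 FPKM in Vehicle and 3.67 to 8.16 FPKM in Ribose. The processed pseudogene Gm42164 and the antisense RNA Gm13307 had Vehicle means of 4.99 and 5.35 FPKM and Ribose means of 0.270 and 1.89 FPKM.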

How the data were processed

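The authors deposited FPKM values per gene for 6 libraries made from polyA RNA with a strand-specific kit, per the labels' protocols. The reads went through bcl2fastq 2.20, FastQC and Trim Galore on build GRCm38, per the submitters' processing notes. Neither source names the aligner, the counting or the handling of reads with several matches. Column names carry the group and replicate number.

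Genes averaging 1 FPKM or more were tested with limma 3.58.1 in R 4.3.3 (lmFit, eBayes with trend) on log2(FPKM + 1), with group as the only term and Benjamini-Hochberg adjustment at 0.05 over all of them. A pseudocount of 1 understates differences of low genes. The test was checked on simulated data with normal errors and with changes planted only in the more abundant genes. That check does not cover genes of low level. Relative depth came from the spacing of low values. Symbols, biotypes, coordinates and sequences came from GENCODE M21 on GRCm38. Pseudogenes were matched to protein-coding genes by shared words of 31 bases, with at least 20% shared.

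The named genes are, per direction, the 15 protein-coding genes with the smallest p among those with separated groups, a difference of at least 0.5 and no provisional name. To these were added every measured pentose phosphate gene, up to 4 genes of each other list by smallest p, and up to 4 genes of other biotypes per direction. The members, gene lists and tests were chosen with earlier results of these data known. Alternatives were other pseudocounts, filters, scalings, weights, a replicate block, a length correction and leaving out libraries. The 6 AAV libraries were not used.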

Additional observations from a re-analysis of the deposited data

How the results depend on the processing

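The count of genes called higher in Ribose was 1 as reported, 0 among protein-coding genes alone, and 1 in the other alternatives that kept all libraries, while 0 genes were called lower except with a pseudocount of 0.5, with equal totals and with the length trend removed, which each called 1 (Gm5417). Leaving out 1 library gave 1 to 3 genes higher and 0 to 2 lower: without Ribose 2 it was 3 and 1, and without Ribose 3 it was 1 and 2, with mt-Atp6 the only protein-coding gene of these, whose copy Gm10925 had the opposite difference (1.39). With both replicate 2 libraries left out, 4 were higher and 2 lower. Gm15387 was called in every alternative that tested it. The genes with separated groups, 591 higher and 738 lower, became 1055 and 1175 with no filter, 296 and 584 from a mean of 5 FPKM, 954 to 1446 and 1154 to 1767 without 1 library, and 2413 and 2844 without both replicate 2 libraries, since fewer libraries separate more easily. The labels do not say that a replicate number marks a shared animal or day, and the deviations of same-numbered libraries correlated at 0.04, 0.36 and 0.16, those of other pairs at -0.26 to 0.14. A fit with the replicate block called 1 gene higher and 0 lower. Absolute depth is unknown, and the median standard error of protein-coding genes was 0.31 under 5 FPKM against 0.13 from 50 FPKM.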
